A study of Homo sapiens with 23 samples.

Results

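The comparison described here is that of Caco-2 cells given free fatty acids (FFAs) with Caco-2 cells without FFAs, both while sharing circulating medium with HepG2 cells. It covers 5 of the 23 mRNA-seq libraries of the study, namely 3 libraries of co-cultured Caco-2 cells with FFAs and 2 of co-cultured Caco-2 control cells. Genes were taken where the mean level was at least 1 TPM (a gene's share of all transcripts in a library, scaled to a fixed total) in either group, which left 14711 of the 60564 genes listed. Of these, 13816 reached the minimum in both groups, 467 in the FFAs group alone and 428 in the control group alone. A gene that entered through 1 group alone had to lie higher there, so its direction carries no weight of its own. The gene just inside the minimum was AL135999.1, with a larger group mean of 1 TPM, and the gene just outside it was INHBB, with 0.997 TPM.

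Caco-2 is an established human colorectal adenocarcinoma line used as a model of the gut epithelium, and HepG2 is an established human hepatocellular carcinoma line used as a model of hepatocytes. In co-culture the study placed both lines in separate chambers of a microfluidic gut-liver chip (the iGLC platform), joined by a closed circulation. In mono-culture each line was cultured without the other. The FFAs group received FFAs at 1 mM in all, palmitic and oleic acid at a ratio of 1:2, for 1 day, and the control group medium without FFAs. The study's methods dissolve both acids in DMSO and do not say whether the control medium held DMSO. A part of DMSO in the differences below was not tested. Caco-2 mono-cultures with and without FFAs, 3 libraries each, serve below as the reference for co-culture. Each group is 1 cell line, and the labels do not say whether the libraries came from separate chips. The paper states more than 1 independent experiment for its mRNA-seq, and its reporting summary names biological replicates. Neither assigns single libraries to experiments. P-values therefore measure the spread between these libraries, which may be technical.

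Enterocytes take up long-chain fatty acids, activate them to acyl-CoA, and either re-esterify them into triglyceride for chylomicrons and lipid droplets or oxidise them in mitochondria. Fatty acids also act as ligands of the PPAR nuclear receptors, whose known targets include PDK4, CPT1A, PLIN2 and ANGPTL4. Unsaturated fatty acids are known to lower the activity of SREBP1, the transcription factor encoded by SREBF1 that drives fatty acid synthesis.

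The label of the cells was checked against their markers. VIL1 and CDH17, both proteins of the enterocyte brush border or its lateral membrane, and CDX2, an intestinal transcription factor, were present in every library. VIL1 was also at 225 TPM in mono-cultured HepG2 controls, so its presence does not tell the lines apart, whereas CDH17 was at 0.397 TPM there. CDX2 lay between 78.4 and 106 TPM in the 5 libraries against 0.207 TPM in mono-cultured HepG2 controls. CDX1 and KRT20, also used as intestinal markers, were at or near 0, with 0 to 0.1 TPM and 0.46 to 1.52 TPM. The number of genes above 0 TPM was 21595 and 23689 in the control libraries and 21939 to 23252 in the FFAs libraries. The files hold no read counts, so the depth of each library is unknown and no counting error is given.

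RNA of HepG2 was present at differing levels. Over 34 genes that are high in HepG2 and low in Caco-2 mono-culture, the level amounted to 0.826% and 0.0883% of that in HepG2 in control replicates 1 and 2. In FFAs replicates 1, 2 and 3 it was 2.08%, 0.242% and 0.105%, against 0.1% to 0.183% in the mono-cultured Caco-2 libraries. FFAs replicate 1 and control replicate 1 thus stood above the others, and the group means of 0.808% ± 1.1 (SD, n = 3) with FFAs and 0.457% ± 0.521 (n = 2) without differed by less than the spread between libraries (two-sided exact permutation test, p = 0.8). TF (transferrin), for example, was at 42.8 and 4.17 TPM in the controls and at 133, 10.2 and 6.06 TPM with FFAs. AFP (alpha-fetoprotein), which Caco-2 cells also express, lay between 180 and 414 TPM against 9167 TPM in HepG2. With each library's share of HepG2 RNA subtracted, the fit described next gave the same numbers of adjusted calls, and its part in single genes was not tested unless a value is given.

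Few genes passed the adjusted test. In a limma fit on log2(TPM + 1) over the 11 Caco-2 libraries, 3 genes passed a Benjamini-Hochberg adjusted p of 0.05. All were lower with FFAs (0.0204% of the genes tested), and 0 genes were higher (0%). All 3 entered through the control group alone, so they could only appear as lower. Outside the 2 controls they were at 0 TPM in every library, which narrows the spread that the fit assigns to them. Before adjustment, 196 genes were higher (1.33%) and 239 lower (1.62%) at p under 0.05, together 2.96%. The smallest adjusted p of a gene that was higher was 0.999. The 3 FFAs libraries lay above both controls for 1232 genes (8.37%) and below both for 1331 (9.05%). The log2 fold change had a median of -0.002, 90% of the genes lay between -0.381 and 0.396, and the median standard error was 0.185. With 3 libraries against 2, an exact permutation test of a single gene cannot give a p under 0.1. Except for the 3 genes described next, every co-culture difference given below has an adjusted p of 0.999 by limma. An unadjusted p under 0.05 is stated for many genes, as a description that does not stand up to adjustment. Where none is stated, the p may lie on either side of 0.05. Values in parentheses after TPM are log2 fold changes of FFAs minus control on the log2(TPM + 1) scale, with their standard error (SE).

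**Figure D1:**
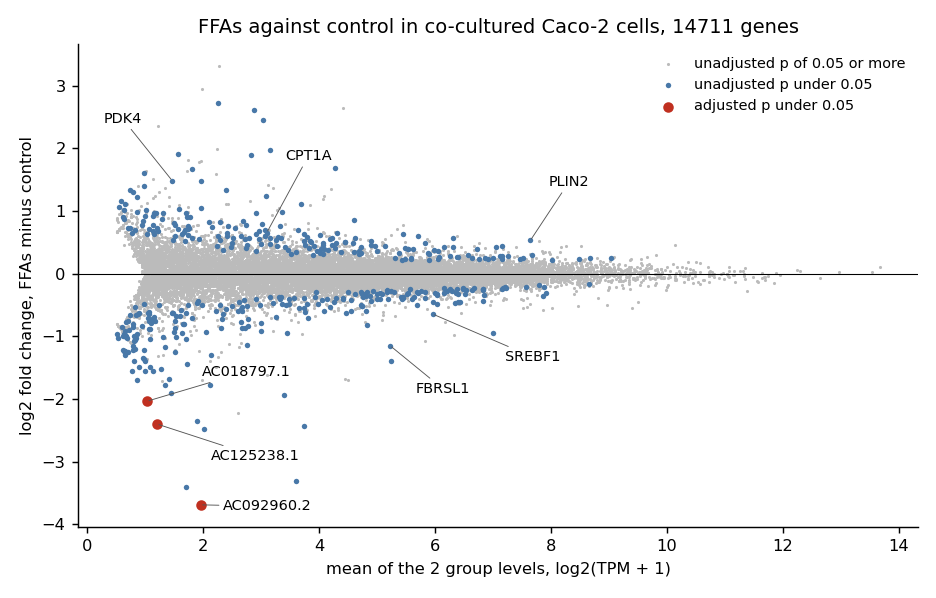
Log2 fold change of FFAs minus control in co-cultured Caco-2 cells (vertical axis) against the mean of the 2 group levels in log2(TPM + 1) (horizontal axis) for 14711 genes, 1 point per gene. Red points are the 3 genes past an adjusted p of 0.05, all below 0; blue points have an unadjusted p under 0.05, and the scatter narrows as the level rises.

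The 3 genes that passed are short, non-coding and low. Each was listed at 0 TPM in all 3 FFAs libraries and, besides the 2 co-culture controls, in every other library of the study, so each entered the comparison through the control group alone and no fold is given. AC125238.1 (ENSG00000233031), a processed pseudogene, was at 4.56 and 4.02 TPM in control replicates 1 and 2 (adjusted p = 0.00371). AC092960.2 (ENSG00000253092), annotated as a small nucleolar RNA, was at 21.8 and 6.31 TPM (adjusted p = 0.00546). AC092960.2 overlaps LINC00888 on the same strand, and how reads were divided between them was not tested. AC018797.1 (ENSG00000224207), a second processed pseudogene, was at 4 and 2.36 TPM (adjusted p = 0.0209), and leaving out any single FFAs library ended its call, with adjusted p from 0.0727 to 0.0925. When the pseudocount was lowered to 0.1, 0 of them passed (adjusted p = 0.139 to 1), and in a fit of the 5 co-culture libraries alone 0 of them passed either (adjusted p = 0.145 to 0.469).

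The sequences of both pseudogenes are shown because they bear on which reads can be assigned to them. They are from GRCh38 and read 5′ to 3′ on the gene's strand. Capitals mark the positions that differ from the closest protein-coding transcript in GENCODE v44.
AC125238.1 (chr2:203672175-203672423, minus strand): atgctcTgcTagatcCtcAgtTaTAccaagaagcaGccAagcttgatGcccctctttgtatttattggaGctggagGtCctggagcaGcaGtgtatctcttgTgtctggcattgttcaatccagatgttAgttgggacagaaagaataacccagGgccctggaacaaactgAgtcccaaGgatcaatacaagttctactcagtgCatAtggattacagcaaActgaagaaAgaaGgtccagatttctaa
AC018797.1 (chr4:102734358-102734612, plus strand): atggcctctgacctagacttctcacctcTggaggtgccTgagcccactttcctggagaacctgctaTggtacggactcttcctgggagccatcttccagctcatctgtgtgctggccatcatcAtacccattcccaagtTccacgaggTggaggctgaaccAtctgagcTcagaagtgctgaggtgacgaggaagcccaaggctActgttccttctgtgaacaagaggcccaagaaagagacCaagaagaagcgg

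AC125238.1 was 88.8% identical over 249 aligned columns (25 mismatches and 3 gaps) to NDUFA4, which encodes a subunit associated with cytochrome c oxidase. NDUFA4 itself was at 160 and 166 TPM in the controls and at 168, 166 and 165 TPM with FFAs (log2 fold change 0.03, SE 0.08). AC018797.1 was 96.1% identical over 255 bases, with 10 mismatches and 0 gaps, to MANBAL, which was at 144 and 162 TPM in the controls and at 158, 147 and 173 TPM with FFAs (0.06, SE 0.09). In both cases the close relative was far more abundant than the pseudogene and its groups overlapped. AC018797.1 also lies within MANBA, the beta-mannosidase gene, on the opposite strand, where 11 of its 17 transcripts span the pseudogene and 1 has an exon that overlaps it. MANBA overlapped between the groups (30.1 and 34.3 TPM in the controls, 30.8, 39.5 and 31.2 TPM with FFAs). How reads shared with such copies were assigned was not tested, and values of both pseudogenes are given with that limit.

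Genes of fatty acid oxidation and known PPAR targets lay mostly higher with FFAs. Of 35 genes listed, 30 were tested, 23 lay above 0 and 7 below (beside 49.6% and 50.4% of all genes tested), and 0 passed the adjusted test. At an unadjusted p under 0.05, 4 were higher (PDK4, CPT1A, PLIN2 and SLC25A20) and 0 lower, beside 1.33% and 1.62% of all genes tested. The FFAs libraries lay above both controls for 10 of the 30 and below both for 2, beside 8.37% and 9.05% of all genes. The list's median log2 fold change was 0.09, against -0.002 over all genes tested, and it stayed between 0.06 and 0.15 with any single library left out.

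PDK4, the kinase that holds back pyruvate dehydrogenase so that pyruvate is spared when fat is burned, was at 0.51 and 0.73 TPM in the controls and at 2.38, 5.14 and 3.49 TPM with FFAs. The groups did not overlap, with means of 0.62 ± 0.156 TPM (SD, n = 2) and 3.67 ± 1.39 TPM (n = 3), and the log2 fold change was 1.49 (SE 0.37). PDK4 reached 1 TPM with FFAs alone, so it could only enter the comparison as a gene higher with FFAs. PLIN2, a coat protein of lipid droplets, was at 155 and 175 TPM in the controls and at 223, 239 and 254 TPM with FFAs. Every FFAs library lay above both controls, the means were 165 ± 14.5 and 239 ± 15.5 TPM, and the log2 fold change was 0.53 (SE 0.19).

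CPT1A, the carnitine palmitoyltransferase that commits long-chain acyl-CoA to the mitochondrion, was at 4.24 and 7.48 TPM in the controls and at 11.5, 9.79 and 7.61 TPM with FFAs. The highest control and the lowest FFAs library nearly met, and the log2 fold change of 0.66 (SE 0.23) ranged from 0.31 to 1.00 with any single library left out. SLC25A20, the carrier that passes acylcarnitines across the inner mitochondrial membrane, was at 55 and 59.5 TPM in the controls and at 83.4, 75.1 and 64.7 TPM with FFAs (0.37, SE 0.15). All 3 FFAs libraries of SLC25A20 were above the controls.

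Other members of the list were less separated. ANGPTL4, a secreted inhibitor of lipoprotein lipase and a known PPAR target, was at 1.76 and 1.7 TPM in the controls and at 1.61, 2.31 and 1.76 TPM with FFAs (0.08, SE 0.25). Its groups overlapped. HADHB, a subunit of the mitochondrial trifunctional protein, lay just above the controls in every FFAs library (205 and 214 TPM against 239, 266 and 215 TPM, 0.19, SE 0.10). CREB3L3, a membrane-bound transcription factor of gut and liver lipid metabolism, was at 3.47 and 3.82 TPM in the controls and at 7.75, 10.5 and 4.05 TPM with FFAs (0.78, SE 0.47). Of the receptors, PPARA overlapped between the groups (10.7 and 10.6 TPM against 11.2, 9.6 and 9.48 TPM), and PPARG was lower in every FFAs library (33.2 and 37.1 TPM against 31.8, 32.2 and 30.2 TPM, -0.16, SE 0.11).

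**Figure D2:**
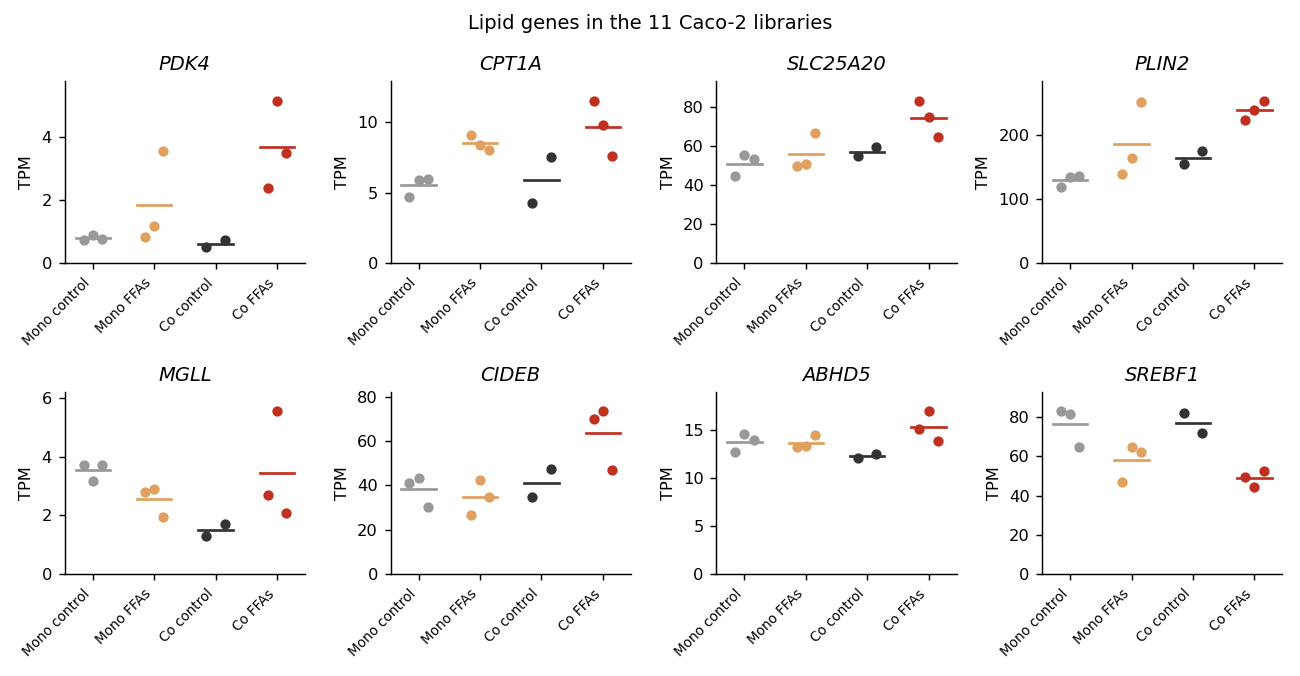
TPM (vertical axis, from 0) of 8 lipid genes in each of the 11 Caco-2 libraries, by culture and treatment; points are libraries and lines are group means. In co-culture the FFAs libraries of PDK4, CPT1A, SLC25A20, PLIN2, MGLL and ABHD5 lie above both controls and those of SREBF1 below both, whereas CIDEB overlaps.

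Promoters were read for motifs, since PDK4, CPT1A, PLIN2 and SLC25A20 are known PPAR targets. RefSeq windows of 250 bases before the start were found for PDK4, CPT1A, PLIN2, SLC25A20 and SREBF1 (GRCh38.p14). The half-site AGGTCA of nuclear receptors, searched on both strands, was in 0 of these 5 windows and in 12.1% of all 35116 windows, and a direct repeat of it after 1 base of any kind (DR1) was in 0 and 0.0171%. The E-box CACGTG was in the PLIN2 window, 69 bases before the start, and in 6.34% of all windows. The windows of PDK4 and PLIN2 are given, with the E-box in capitals.
PDK4 (chr7:95596517-95596766, minus strand): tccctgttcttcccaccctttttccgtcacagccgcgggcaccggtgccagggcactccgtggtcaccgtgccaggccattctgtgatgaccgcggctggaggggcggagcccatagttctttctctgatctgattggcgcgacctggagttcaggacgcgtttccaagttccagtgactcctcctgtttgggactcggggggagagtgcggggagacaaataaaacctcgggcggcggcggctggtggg
PLIN2 (chr9:19127493-19127742, minus strand): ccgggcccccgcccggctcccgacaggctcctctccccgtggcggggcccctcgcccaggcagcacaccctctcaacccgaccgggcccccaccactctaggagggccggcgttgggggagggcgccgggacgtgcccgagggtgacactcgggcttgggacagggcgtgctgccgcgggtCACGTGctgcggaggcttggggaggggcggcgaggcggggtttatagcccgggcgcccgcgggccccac
These are letter matches in a short window and hold no information on distal sites or on binding.

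Genes of fatty acid uptake, triglyceride synthesis and chylomicron assembly also lay mostly above 0. Of 33 tested out of 35, 27 lay above 0 and 6 below, 0 passed the adjusted test, and 3 were higher and 0 lower at an unadjusted p under 0.05 (beside 1.33% and 1.62% of all genes). The FFAs libraries did not overlap the controls for 6 genes, 3 in each direction, which is near the 8.37% and 9.05% of all genes tested. The median log2 fold change was 0.13 and ranged from 0.02 to 0.22 with any single library left out. The 3 genes at p under 0.05 were MGLL, ABHD5 and CIDEB.

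MGLL, monoglyceride lipase, was at 1.29 and 1.71 TPM in the controls and at 2.71, 5.55 and 2.09 TPM with FFAs, all above the controls (log2 fold change 0.76, SE 0.29). ABHD5, the activator of adipose triglyceride lipase, was at 12.1 and 12.5 TPM in the controls and at 15.1, 17 and 13.9 TPM with FFAs, also without overlap (0.29, SE 0.13). CIDEB, a lipid droplet protein with a part in the lipidation of lipoproteins, was at 34.8 and 47.3 TPM in the controls and at 69.9, 73.5 and 47.2 TPM with FFAs. For CIDEB, FFAs replicate 3 lay at the level of control replicate 2 (0.61, SE 0.24), and the difference was 0.61 after subtraction of the HepG2 RNA. LPIN2, a phosphatidate phosphatase of triglyceride synthesis, was at 15.1 and 14.5 TPM in the controls and at 20, 20.9 and 15.9 TPM with FFAs (0.32, SE 0.15, unadjusted p above 0.05).

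Among the genes of fatty acid synthesis and desaturation, SREBF1 was the one gene with an unadjusted p under 0.05. The share over all genes tested was 2.96%. SREBF1 was at 82.1 and 71.7 TPM in the controls and at 49.4, 44.6 and 52.3 TPM with FFAs. All FFAs libraries were below both controls, with means of 76.9 ± 7.34 TPM (n = 2) and 48.8 ± 3.89 TPM (n = 3), a log2 fold change of -0.65 (SE 0.16) and a range of -0.74 to -0.55 with any single library left out. FASN, fatty acid synthase, overlapped between the groups (17.2 and 22 TPM in the controls, 22.4, 15.4 and 21.9 TPM with FFAs). SCD, the desaturase that makes oleic from stearic acid, was lower in every FFAs library (582 and 526 TPM against 437, 503 and 473 TPM) with a log2 fold change of -0.23 (SE 0.20), and ME1, the malic enzyme that supplies NADPH, was higher in every FFAs library (81.8 and 87.9 TPM against 95.3, 91.5 and 106 TPM, 0.20, SE 0.10). Of the 16 genes tested, 9 lay above 0 and 7 below, with a median of 0.02. SREBF1, SCD and ME1 were the 3 whose groups did not overlap, 1 higher and 2 lower. This is near the 8.37% higher and 9.05% lower of all genes tested.

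Genes of sterol synthesis showed no common direction. Of 25 tested, 11 lay above 0 and 14 below, with a median of -0.008. MSMO1, a methylsterol oxidase of cholesterol synthesis, was the one gene of the 25 with an unadjusted p under 0.05. This is near the share of 2.96% over all genes tested. MSMO1 was at 79.9 and 104 TPM in the controls and at 121, 121 and 118 TPM with FFAs (log2 fold change 0.39, SE 0.15).

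Lists of stress response genes lay on different sides of 0. Of 21 genes of the integrated stress response, the programme of ATF4 that restores amino acid supply, 19 lay below 0 and 2 above, with a median log2 fold change of -0.26 against -0.002 over all genes tested. The FFAs libraries differed widely among themselves here. ATF4 was at 344 and 396 TPM in the controls and at 228, 275 and 413 TPM with FFAs (-0.32, SE 0.20). TRIB3, a pseudokinase induced by ATF4, was at 192 and 236 TPM in the controls and at 95.2, 137 and 232 TPM with FFAs (-0.56, SE 0.29). SESN2 (27.9 and 27.7 TPM against 10.2, 22.4 and 27.2 TPM) and CHAC1, which degrades glutathione (31.4 and 33.2 TPM against 7.22, 24.6 and 34.2 TPM), were lowest in FFAs replicate 1, while FFAs replicate 3 lay near the controls. FFAs replicate 1 also had the most HepG2 RNA, at 2.08%. With HepG2 RNA subtracted, the log2 fold change was -0.321 for ATF4 and -0.593 for TRIB3, beside -0.317 and -0.555 before. Its part in the list as a whole was not tested. ATF5, a related factor, went the other way, at 2.96 and 3.15 TPM in the controls and at 4.59, 4.62 and 4.26 TPM with FFAs (0.44, SE 0.18, unadjusted p under 0.05). The list's median stayed below 0 but ranged from -0.42 to -0.08 with any single library left out.

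Endoplasmic reticulum chaperones and other genes of the unfolded protein response, a pathway often studied with palmitic acid, lay above 0 in 15 of 20 cases with a median of 0.06. Genes of the NRF2 oxidative stress response lay above 0 in 14 of 20 with a median of 0.04, heat shock genes in 9 of 13 with a median of 0.11, and p53 targets and apoptosis genes in 11 of 17 with a median of 0.05. Immediate-early and NF-kB targets lay below 0 in 15 of 23 with a median of -0.07. Of the 23, CXCL8 reached 1 TPM with FFAs alone, so it could only enter as a gene higher with FFAs. In each of these 5 lists 0 genes passed the adjusted test and 0 had an unadjusted p under 0.05, beside 2.96% of all genes tested. DDIT3 (CHOP), a factor of stress-induced cell death that belongs to the integrated stress response list, overlapped between the groups, at 142 and 161 TPM in the controls and at 95.3, 168 and 133 TPM with FFAs.

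**Figure D3:**
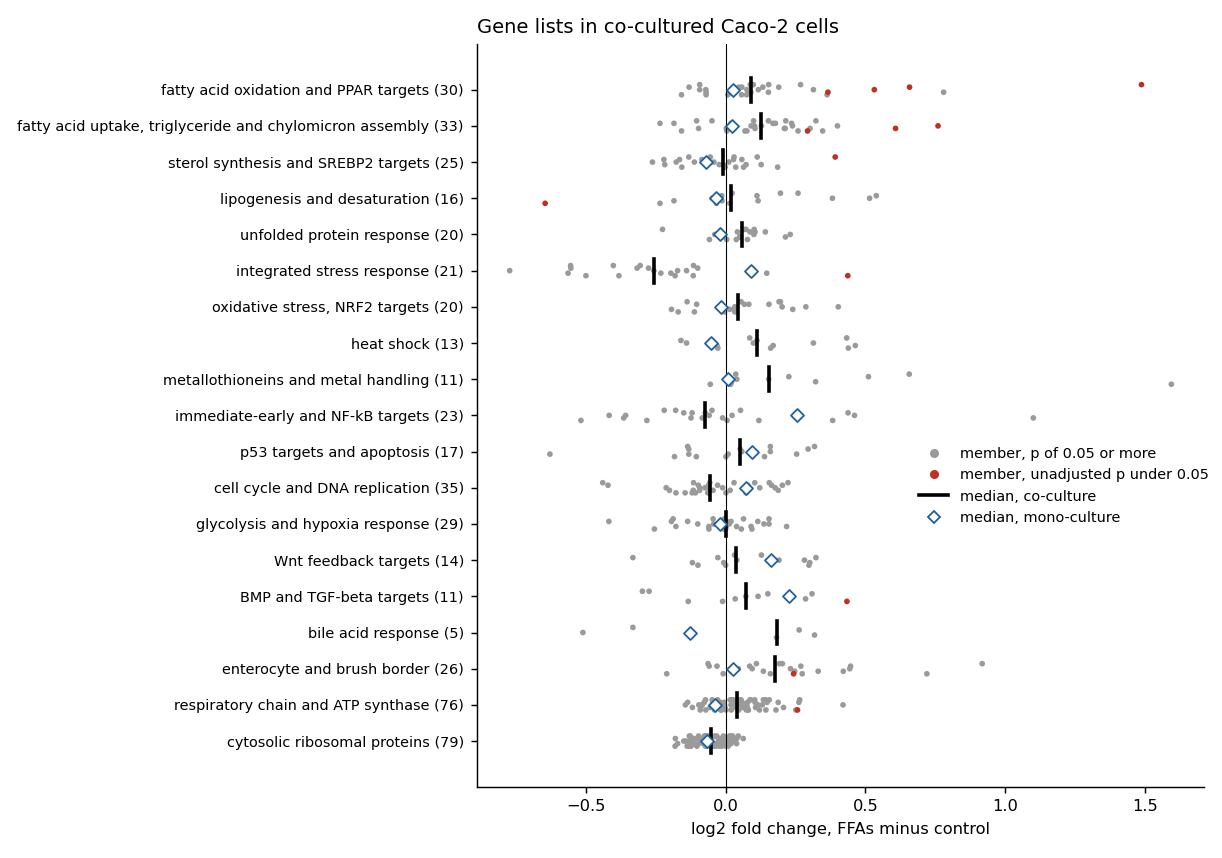
Log2 fold change of FFAs minus control in co-culture (horizontal axis) for the tested members of 19 gene lists (rows, number tested in parentheses); each point is 1 gene, red where the unadjusted p was under 0.05, the bar is the list's median and the open diamond its median in mono-culture. Most medians lie within 0.2 of 0; that of the integrated stress response lies lowest, at -0.26.

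Genes of the enterocyte and its brush border, the microvillar surface that carries digestive enzymes, lay above 0 in 21 of 26 cases, with a median of 0.18 that ranged from 0.05 to 0.33 with any single library left out. Of the 26, ALPG and MYO7B (control means 0.725 and 0.94 TPM) reached 1 TPM with FFAs alone. Both could only enter as genes higher with FFAs. CDH17, an intestinal cadherin, was at 362 and 385 TPM in the controls and at 457, 480 and 394 TPM with FFAs, all above the controls (0.24, SE 0.11, unadjusted p under 0.05). ALPI, intestinal alkaline phosphatase, was at 14.9 and 17.4 TPM in the controls and at 23, 29.8 and 16.2 TPM with FFAs (0.45, SE 0.22). SI, sucrase-isomaltase, was at 9.33 and 11.2 TPM in the controls and at 13.5, 16.6 and 12.4 TPM with FFAs (0.42, SE 0.28). In ALPI, FFAs replicate 3 lay between the controls. In bulk libraries such as these, fewer cells of a kind and less RNA per cell cannot be told apart.

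The list means showed the same split of the FFAs libraries. For the brush border list, the mean log2(TPM + 1) was 5.42 and 5.30 in control replicates 1 and 2 and 5.69, 5.72 and 5.27 in FFAs replicates 1, 2 and 3. For the integrated stress response it was 6.46 and 6.84 in the controls and 5.91, 6.41 and 6.83 with FFAs. FFAs replicate 3 thus lay with control replicate 2 in both. For fatty acid oxidation and PPAR targets all 3 FFAs libraries (6.24, 6.38 and 6.13) lay above both controls (6.05 and 6.09). Here FFAs replicate 3 was only slightly above control replicate 2. The list includes PDK4, which could only enter as a gene higher with FFAs. Its mean without PDK4 is not given, so no contrast with the other lists is drawn.

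**Figure D4:**
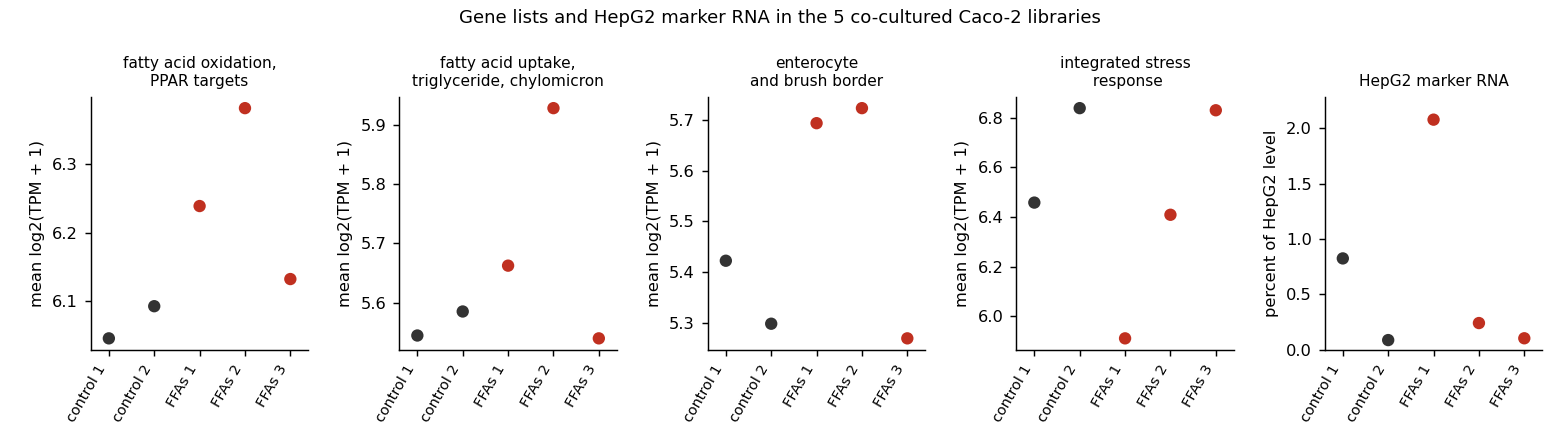
Mean log2(TPM + 1) of the tested members of 4 gene lists, and HepG2 marker RNA as a percent of its level in HepG2 (vertical axes; the first 4 do not start at 0), in each of the 5 co-cultured Caco-2 libraries (control grey, FFAs red). The FFAs libraries all lie above the controls for fatty acid oxidation and PPAR targets, FFAs replicate 3 only slightly above control replicate 2. That list includes PDK4, which could only enter as higher with FFAs. FFAs replicate 3 lies near control replicate 2 for the brush border and the integrated stress response.

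Of the nuclear-encoded subunits of the respiratory chain and ATP synthase, 48 of 76 lay above 0 with a median of 0.04. The FFAs libraries lay above both controls for 9 of them and below both for 1, beside 8.37% and 9.05% of all genes. COX7A2, a subunit of cytochrome c oxidase, was at 463 and 492 TPM in the controls and at 588, 546 and 579 TPM with FFAs (0.26, SE 0.10, unadjusted p under 0.05). NDUFB3, a subunit of complex I, was at 253 and 240 TPM against 338, 369 and 288 TPM (0.42, SE 0.22, unadjusted p above 0.05). Both were above the controls in every FFAs library. Cytosolic ribosomal protein genes lay below 0 in 63 of 79 cases, with a median of only -0.05 and values between -0.18 and 0.06.

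Cell cycle and DNA replication genes lay below 0 in 21 of 35 cases (median -0.06), and glycolysis and hypoxia response genes in 15 of 29 (median 0). Metallothioneins and metal handling genes lay above 0 in 10 of 11 cases (median 0.15), Wnt feedback targets in 9 of 14 (0.04), BMP and TGF-beta targets in 7 of 11 (0.07) and bile acid response genes in 3 of 5 (0.18). The mean of the metallothionein list was highest in FFAs replicate 1 (4.62 on the log2 scale), the library with the most HepG2 RNA, and its member MT1G is one of the 34 HepG2 marker genes. MT1G also reached 1 TPM with FFAs alone (control mean 0.885 TPM), so it could only enter as a gene higher with FFAs. With HepG2 RNA subtracted, the log2 fold change was 1.495 for MT1X and 0.661 for MT1F, beside 1.595 and 0.657 before. MT1G has no value after subtraction, and the part of HepG2 RNA in the metallothionein list as a whole was not tested. Over these 6 lists 0 genes passed the adjusted test. TGFBI, an extracellular matrix protein induced by TGF-beta, was the one with an unadjusted p under 0.05, beside 2.96% of all genes tested. TGFBI was at 60 and 73.6 TPM in the controls and at 90.9, 112 and 71.6 TPM with FFAs, so the groups overlapped (0.43, SE 0.18).

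Many of the largest fold changes among genes of at least 5 TPM were in transcripts that overlap other genes. The share of such transcripts among all genes tested was not counted, and PDK4, MGLL and SREBF1, for example, overlap other annotated genes too. Of the 10 lowest, 4 are annotated as protein-coding (FBRSL1, AC138811.2, AL162231.1 and AC005943.1). FBRSL1 was at 65 and 45.3 TPM in the controls and at 25.2, 21.8 and 24.7 TPM with FFAs (log2 fold change -1.15, SE 0.26). The controls of FBRSL1 in mono-culture were at 20.3, 29.6 and 33.6 TPM, so both co-culture controls lay above them. AC138696.2, antisense to ZNF696, was at 8.93 and 10.3 TPM in the controls and listed at 0 in all FFAs libraries. It entered through the control group alone, so it could only appear as lower with FFAs. In mono-culture AC138696.2 was at 0, 8.66 and 6.39 TPM in the controls and at 0, 9.45 and 8.82 TPM with FFAs. AC087521.4, antisense to HSD17B12, was at 34.6 and 15.9 TPM in the controls and at 0, 0 and 13.9 TPM with FFAs (-3.32, SE 1.5). AC004982.2 (antisense to MIOS, -2.44), AC015674.1 (antisense to KPNB1, -1.39) and AC020910.5 (antisense to ZNF181, -0.95) share their locus with a protein-coding gene on the other strand, and AC138811.2 (-1.94) and AC005943.1 (-1.15) overlap protein-coding genes. The remaining members of the 10 were AL162231.1 (-1.77) and AC092960.2, described above, and both overlap other genes too. AL162231.1 overlaps genes on both strands, and AC092960.2 overlaps LINC00888 on the same strand. The library kit is not stated to keep strand, so reads of an antisense transcript and its partner cannot be told apart.

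Of the 10 highest, RARRES1, a membrane protein induced by retinoids, was at 3.35 and 5.3 TPM in the controls and at 8.52, 12.4 and 7.42 TPM with FFAs (0.97, SE 0.34). S100A1, a calcium-binding protein, was at 1.2 and 3.25 TPM against 6.84, 12.1 and 3.49 TPM (1.34, SE 0.58), and CATSPER2, which has near-identical copies, at 0.24 and 0.54 TPM against 3.9, 10.2 and 1.6 TPM (1.92, SE 0.59). CATSPER2 and AC025857.2 reached 1 TPM with FFAs alone, so they could only enter as genes higher with FFAs. LINC02041 was at 4.89 and 15.8 TPM in the controls and at 26.2, 41.7 and 26.8 TPM with FFAs (1.68, SE 0.57). The other 6 were AC025857.2 (2.73), AC234781.5 (2.62), AC105233.6 (2.46), AP000769.1 (1.97), GUSBP5 (1.49) and RCC2-AS1 (1.24). Some of these values turn on single libraries. With any one left out, AC105233.6 ranged from 1.02 to 3.89, AC234781.5 from 1.34 to 3.89, LINC02041 from 0.93 to 2.44, S100A1 from 0.86 to 1.81 and RCC2-AS1 from 0.71 to 1.55, and AC004982.2 among the lowest ranged from -3.74 to -1.14. Of the 435 genes with an unadjusted p under 0.05, 71.3% were protein-coding, against 84.3% of all genes tested.

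Further protein-coding genes were picked after their values had been seen, for a large difference without overlap and an unadjusted p under 0.05. PTCH1, the Hedgehog receptor, was at 3.92 and 6.52 TPM in the controls and at 10.9, 8.01 and 9.76 TPM with FFAs (0.79, SE 0.22). SP6, a zinc finger transcription factor, was at 8.26 and 9.06 TPM against 16.6, 16.9 and 11.3 TPM (0.70, SE 0.18), and XIAP, an inhibitor of caspases, at 5.71 and 5.33 TPM against 7.13, 12.8 and 9.44 TPM (0.69, SE 0.29). PANK3, a pantothenate kinase that starts coenzyme A synthesis, was lower with FFAs, at 35 and 37.3 TPM against 16.8, 20 and 24.1 TPM (-0.82, SE 0.34). SMCO4 was at 169 and 185 TPM in the controls and at 89.5, 93.3 and 91.9 TPM with FFAs (-0.94, SE 0.39), but it also ranged from 73 to 189 TPM among the mono-culture controls.

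In mono-culture, where no HepG2 cells shared the medium, FFAs gave 0 genes at an adjusted p under 0.05 (0%), and 262 higher (1.78%) and 88 lower (0.598%) at an unadjusted p under 0.05. The difference between the cultures, tested as an interaction in the same limma fit, passed for 0 genes (0%), with 274 (1.86%) at an unadjusted p under 0.05 and a smallest adjusted p of 0.0728. Both contrasts are from separate libraries. Across the genes tested, the log2 fold changes of the cultures had a Pearson r of 0.09 and a Spearman rho of 0.17, given as a description, since genes are not independent replicates. Of the 435 genes at p under 0.05 in co-culture, 57% had the same sign in mono-culture, beside 56.4% of all genes tested. The FFAs libraries lay above all controls in both cultures for 122 genes (0.829%), below in both for 49 (0.333%) and in opposite directions for 55 (0.374%). In mono-culture alone the groups did not overlap for 737 higher (5.01%) and 285 lower genes (1.94%).

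Several lipid genes had the same sign in the 2 cultures. In mono-culture PLIN2 was at 119, 135 and 137 TPM in the controls and at 140, 165 and 252 TPM with FFAs, a log2 fold change of 0.47 beside 0.53 in co-culture. SREBF1 was at 82.9, 81.7 and 64.5 TPM in the mono-culture controls and at 47.1, 64.6 and 62.3 TPM with FFAs (-0.39 beside -0.65), and CPT1A had 0.55 beside 0.66. These 3 genes had an unadjusted p under 0.05 in both cultures and an adjusted p above 0.05 in both. PDK4 was at 1.49 and 0.54, with mono-culture FFAs libraries at 0.82, 1.18 and 3.56 TPM against 0.75, 0.9 and 0.76 TPM in the controls. Among genes picked after their values had been seen, LANCL1, a glutathione-binding protein, was at 22.4 and 26.2 TPM in the co-culture controls and at 35.5, 33.9 and 32.2 TPM with FFAs (0.47, SE 0.12). In mono-culture the controls of LANCL1 were at 25.9, 23.9 and 24.3 TPM and the FFAs libraries at 31.6, 29.5 and 35.8 TPM (0.37), again with every FFAs library higher. All genes picked here had an unadjusted p under 0.05 in both cultures.

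TSPAN18, a tetraspanin, was at 3.8 and 5.63 TPM in the co-culture controls and at 8.04, 7.6 and 6.62 TPM with FFAs (0.57, SE 0.18), and its mono-culture value was 0.76. ACOT7, an acyl-CoA thioesterase, was at 229 and 247 TPM against 269, 287 and 272 TPM (0.21, SE 0.09), with 0.39 in mono-culture. The endocytic receptor LRP2 had 0.60 in co-culture and 0.55 in mono-culture, the oxysterol-binding protein OSBP2 0.65 and 0.76, the inducible nitric oxide synthase NOS2 0.40 and 0.43, PDCD5 0.29 and 0.33, and HEATR5A 0.45 and 0.27. FNDC4 (-0.48 and -0.40) and STMN3 (-0.40 and -0.31) were lower with FFAs in both. In these 10 genes the FFAs and control libraries of co-culture did not overlap.

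**Figure D5:**
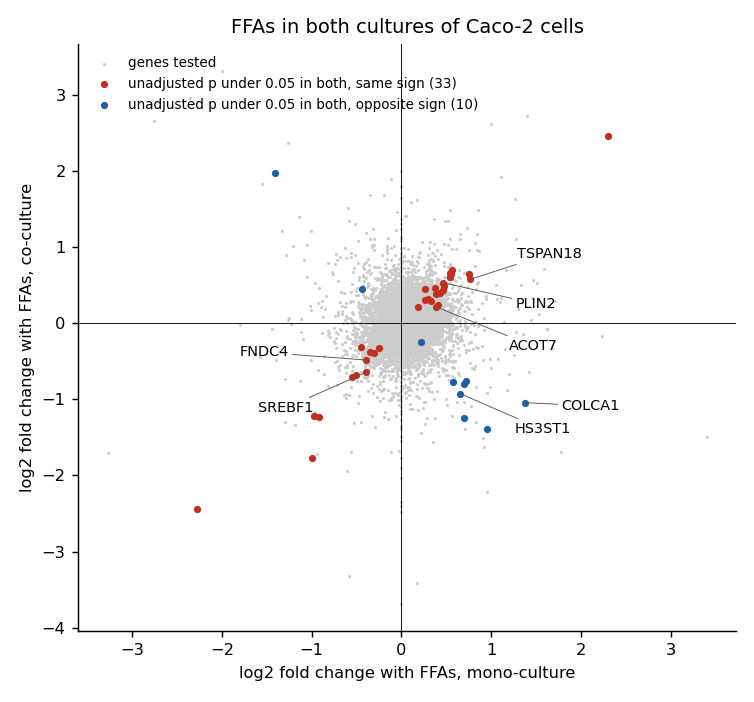
Log2 fold change with FFAs in co-culture (vertical axis) against that in mono-culture (horizontal axis) for 14711 genes of Caco-2 cells, 1 point per gene. Red points are 33 genes with an unadjusted p under 0.05 in both cultures and the same sign, among them PLIN2, ACOT7, TSPAN18, FNDC4 and SREBF1, and blue points are 10 such genes with opposite signs; the cloud of all genes shows little slope.

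Gene lists differed in their medians between the cultures, each given without a test. The integrated stress response had a median of -0.26 in co-culture and 0.09 in mono-culture, and immediate-early and NF-kB targets -0.07 and 0.25. The brush border list had 0.18 and 0.03, fatty acid uptake and triglyceride assembly 0.13 and 0.02, and fatty acid oxidation and PPAR targets 0.09 and 0.03, beside medians over all genes tested of -0.002 and 0.03. CIDEB had a log2 fold change of 0.61 in co-culture and -0.14 in mono-culture, and DDIT3 -0.23 and 0.39. The interaction of both had an unadjusted p under 0.05 and did not pass after adjustment over all genes.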

How the data were processed

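mRNA was measured by mRNA-seq in Caco-2 and HepG2 cells, with full-length cDNA amplification (SMART-Seq v4), Nextera libraries and a NovaSeq instrument per the study's methods. The authors deposited 1 table of TPM per library, which is the unit of every value used here. Per those methods, reads of rRNA, tRNA and the mitochondrial genome were removed with Bowtie2 2.1.0, STAR 2.7.1a aligned the rest to GRCh38 (Ensembl 98 annotation), and RSEM 1.3.0 gave the TPM. TPM keep no depth, and removal of mitochondrial reads cannot be varied. The labels give a low-serum medium, the methods a serum-free one with albumin.

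Groups came from the sample labels. Values were log2(TPM + 1), with a pseudocount of 1, so fold changes of low genes are understated. The 4 Caco-2 groups (11 libraries) were fitted together with limma 3.58.1 (R 4.3.3, eBayes with trend), keeping genes whose mean reached 1 TPM in either co-culture group, and p-values were adjusted by Benjamini-Hochberg at 0.05. The fit was tested on simulated data. Group means of HepG2 RNA were compared by exact permutation. HepG2 markers had at least 50 TPM in HepG2 and at most 1 TPM in Caco-2 mono-culture controls. Sequences come from GENCODE v44 and RefSeq, and matches from blastn 2.17.0. Python 3.11.15 with pandas 2.3.3 and matplotlib 3.10.9 made the tables and plots.

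Members and gene lists were chosen with earlier results of these data known. Genes named are those past adjusted p of 0.05, the 10 highest and 10 lowest without overlap, with an unadjusted p under 0.05 and at least 5 TPM in either group, up to 4 members of each list with the smallest p, PLIN2, PDK4, CPT1A and ANGPTL4, and 3 genes of smallest interaction p. A gene that the rule names and a sequence are not reported here. Others are said to be picked after their values were seen, or serve as illustrations of a list. Alternatives were another pseudocount, no minimum or a minimum of 5 TPM, no trend, only the co-culture libraries, a replicate block, other scalings (median of ratios, quantiles), subtraction of HepG2 RNA, and single libraries or the 2 libraries richest in HepG2 RNA left out.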

Additional observations from a re-analysis of the deposited data

Results flagged for a closer look

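For 5 of the genes named here the effect of FFAs took opposite directions in co-culture and mono-culture, with every FFAs library on 1 side of the controls in one culture and on the other side in the other. Over all genes tested 55 did so (0.374%), and the 5 were picked after their values had been seen or are named by the rule. Each has an unadjusted interaction p under 0.05 in limma, and 0 of them passed after adjustment (adjusted p of 0.9999 for all but COLCA1). The values of the interaction are log2 fold change in co-culture minus that in mono-culture. MGLL, monoglyceride lipase, gave 1.13, with 0.76 in co-culture and -0.36 in mono-culture, where controls were at 3.73, 3.18 and 3.71 TPM and FFAs libraries at 2.81, 2.89 and 1.94 TPM. The co-culture controls of MGLL (1.29 and 1.71 TPM) lay below all mono-culture libraries.

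EDC4, a scaffold of mRNA decapping, gave -0.47. In co-culture it was at 120 and 124 TPM in the controls and at 95.1, 108 and 104 TPM with FFAs (-0.25), and in mono-culture at 98.4, 96 and 99.2 TPM against 114, 110 and 118 TPM (0.22). COLCA1 gave -2.42 (adjusted p = 0.275), from 2.61 and 1.48 TPM against 0.5, 0.74 and 0.17 TPM in co-culture and 0.69, 0.17 and 0.48 TPM against 3.33, 3.22 and 1.81 TPM in mono-culture. COLCA1 reached 1 TPM in the co-culture controls alone, so it could only enter as a gene lower with FFAs in co-culture.

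HS3ST1, a heparan sulfate sulfotransferase, gave -1.58, from 3.5 and 2.25 TPM against 1.28, 1.13 and 0.68 TPM in co-culture and 0.88, 0.91 and 0.94 TPM against 1.78, 3.57 and 1.14 TPM in mono-culture. C4orf33 gave -1.34, from 8.54 and 5.75 TPM against 2.4, 4.62 and 4.48 TPM in co-culture and 2.6, 3 and 2.9 TPM against 5.56, 3.48 and 5.34 TPM in mono-culture. In all of these except MGLL the co-culture controls lay above the mono-culture controls.

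By the rule for named genes, AC009088.3, a long non-coding RNA opposite PRSS8, belongs here as well. It was at 9.18 and 5.52 TPM in the co-culture controls and at 6.13, 3.57 and 5.27 TPM with FFAs, and at 3.2, 3.59 and 5.44 TPM against 11.5, 8.45 and 8.76 TPM in mono-culture, an interaction of -1.54 (adjusted p of 0.9999). Its groups overlapped in co-culture.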

How the results depend on the processing

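The 3 adjusted calls were lower with FFAs. Their number was 0 with a minimum of 5 TPM or a pseudocount of 0.1, 11 with no minimum, 5 without a trend, 1 with only the co-culture libraries (AC138696.2), 14 without the 2 libraries richest in HepG2 RNA and 2 to 25 when single libraries were left out. Most were called without control replicate 2 (25 lower, 2 higher), then without control replicate 1 (16 in all), against 2 or 3 without any single FFAs library. With 1 control left, that library is assumed to vary like the other groups. For genes higher with FFAs, 0 calls became 1 without those 2 libraries and 0 to 2 when single libraries were left out. At an unadjusted p under 0.05, 196 higher genes became 455 with no minimum, 71 without the 2 libraries and 88 to 511 when single libraries were left out, and 239 lower genes became 137 with a minimum of 5 TPM, 675 with no minimum, 131 and 159 to 457, the most in both directions without FFAs replicate 3. Genes without overlap numbered 4056 higher and 4414 lower without the 2 libraries, 2041 lower with no minimum, and 2012 to 3485 higher and 2109 to 3491 lower when single libraries were left out, fewer libraries being easier to separate. Interaction calls were 10 with no minimum, 3 without a trend, 9 without the 2 libraries and 0 to 13 when single libraries were left out. Subtracting HepG2 RNA gave 0 higher and 3 lower adjusted calls, as before. The difference in HepG2 RNA (0.351%) ranged from -0.284 to 0.72. FASN turned to -0.25 without the 2 libraries (-0.16 to 0.19 with single libraries left out) and ANGPTL4 ranged from -0.025 to 0.15. The cause of these shifts was not tested.

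Replicate numbers were not taken to pair the libraries, since not every same-numbered pair deviated together. As a hint from the data, r was 0.035 to 0.403 among libraries numbered 1, -0.126 to 0.127 among those numbered 2 and 0.311 to 0.412 among those numbered 3, and 5 of 11 correlated best with their own number. Co-culture control replicate 2 had r of 0.016 with FFAs replicate 2 and 0.382 with FFAs replicate 3. With 2 controls their deviations mirror each other. With the number as a replicate block, 1 gene was called higher (TSPAN8, 70.8 and 58.4 TPM against 123, 130 and 58.7 TPM, adjusted p = 0.0176), AC125238.1 and AC092960.2 kept their calls and AC018797.1 had an adjusted p of 0.0921. Unadjusted, 662 were higher and 799 lower, against 196 and 239 without the block.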
